A study of Mus musculus with 12 samples.

Results

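Foxd3 and 9 other forkhead genes, Foxi3, Foxh1, Foxo1, Foxo3, Foxp1, Foxp4, Foxm1, Foxk1 and Foxj3, were followed through RNA-seq of mouse embryonic stem cells. The genes were taken by their symbol from the 3 deposited tables, so they are 10 of the 19996 genes in the tables of the serum and overexpression experiments and of the 19718 genes in the 2i table. The study asked what happens to the transcriptome when Foxd3 is removed or supplied in excess, and 12 libraries of polyadenylated RNA were made in 6 groups of 2. Expression is given throughout as FPKM, fragments scaled for transcript length and library size.

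In the deletion experiments, cells carrying loxP-flanked Foxd3 alleles and a tamoxifen-inducible Cre recombinase (Foxd3fl/fl;Cre-ER) were given 2 µM 4-hydroxytamoxifen for 3 days (Foxd3-/-) or were left untreated (Foxd3fl/fl). In the first, abbreviated SL, cells grew on irradiated mouse embryonic fibroblasts in 15% serum with leukemia inhibitory factor (LIF). In the second, abbreviated 2i, they grew in serum-free N2B27 with LIF, 0.4 µM of the MEK inhibitor PD0325901 and 3 µM of the GSK3β inhibitor CHIR99021. In the overexpression experiment, tetON Foxd3 cells, which carry a doxycycline-driven Foxd3, and wild-type (WT) LF2 cells both received doxycycline at 1 µg/µl for 3 days in serum and LIF without feeders. All untreated Foxd3fl/fl libraries carry the floxed alleles and the Cre, no group received tamoxifen without the floxed alleles, and no tetON group went without doxycycline. The labels do not name which bases lie between the loxP sites, how many clones were used, or whether the 2 libraries of a group came from separate cultures. The p-values therefore measure the spread between these libraries, which may be technical.

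Forkhead proteins bind DNA through a winged-helix domain, and the third helix of that domain lies in the major groove. Foxd3 is a factor of pluripotent cells and, later, of the neural crest, and acts on enhancers both as a repressor and as a pioneer that opens chromatin. Other members have separate jobs: Foxh1 carries Nodal signals to DNA with SMAD proteins, Foxo proteins are held out of the nucleus when AKT is active, Foxm1 switches on mitotic genes, and Foxp and Foxk proteins recruit corepressors.

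The coding sequence of the recognition helix shows what these genes share. The 39 coding bases around it are printed for Foxd3 and for 3 other genes that passed the test in at least 1 comparison, 5′ to 3′ on the coding strand. They were read from GENCODE M21 transcripts on GRCm38, and capitals mark bases identical to Foxd3. The Foxp4 and Foxm1 stretches each join a pair of neighbouring exons, so their coordinates include an intron.

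Foxd3, exon 1, chr4:99657150-99657188, plus strand: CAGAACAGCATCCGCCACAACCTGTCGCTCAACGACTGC
Foxh1, exon 2, chr15:76669238-76669276, minus strand: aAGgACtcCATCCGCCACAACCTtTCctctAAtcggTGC
Foxp4, exons 13 and 14, chr17:47871316-47874637, minus strand: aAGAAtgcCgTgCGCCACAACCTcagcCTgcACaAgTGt
Foxm1, exons 4 and 5, chr6:128369483-128370992, plus strand: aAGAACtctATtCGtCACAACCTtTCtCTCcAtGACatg

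Foxh1 and Foxm1 each shared 26 of the 39 bases with Foxd3, and Foxp4 shared 24. Of the genes not printed, Foxo3 and Foxk1 shared 29, Foxj3 25 and Foxp1 21.

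The bases upstream of Foxd3 and Foxi3 are shown because these were the genes that rose in the overexpression experiment. They come from RefSeq (GRCm38.p6) and end where the GENCODE gene begins. Capitals mark matches on either strand to the motifs searched: the cAMP response element TGACGTCA and the E-box CACGTG in Foxd3, and the GC box GGGCGG in Foxi3.

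Foxd3, chr4:99656049-99656298, plus strand: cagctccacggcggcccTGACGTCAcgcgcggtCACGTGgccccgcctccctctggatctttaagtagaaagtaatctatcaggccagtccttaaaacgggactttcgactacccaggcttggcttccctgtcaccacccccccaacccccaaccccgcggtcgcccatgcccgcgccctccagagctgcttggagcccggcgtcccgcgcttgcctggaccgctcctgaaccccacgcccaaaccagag
Foxi3, chr6:70956356-70956530, plus strand: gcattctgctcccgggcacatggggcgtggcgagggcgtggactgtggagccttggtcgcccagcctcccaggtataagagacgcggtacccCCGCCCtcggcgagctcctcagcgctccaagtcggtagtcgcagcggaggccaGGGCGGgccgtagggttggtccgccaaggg

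Of 32851 promoter windows of 250 bases, 1.55% held the cAMP response element, 6.02% the E-box and 32.7% the GC box. The same search covered the forkhead site TGTTTAC, present in 3.17% of windows, the CCAAT box CCAAT in 33.8% and the TATA box TATAAA in 12.4%; none of these 3 was in the Foxd3 or Foxi3 window. The windows of the other 5 members with a RefSeq entry also held none of the forkhead letters. The motifs do not overlap one another, a match in these letters is not evidence of binding, and the absence of a match says nothing about any factor.

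**Figure D1:**
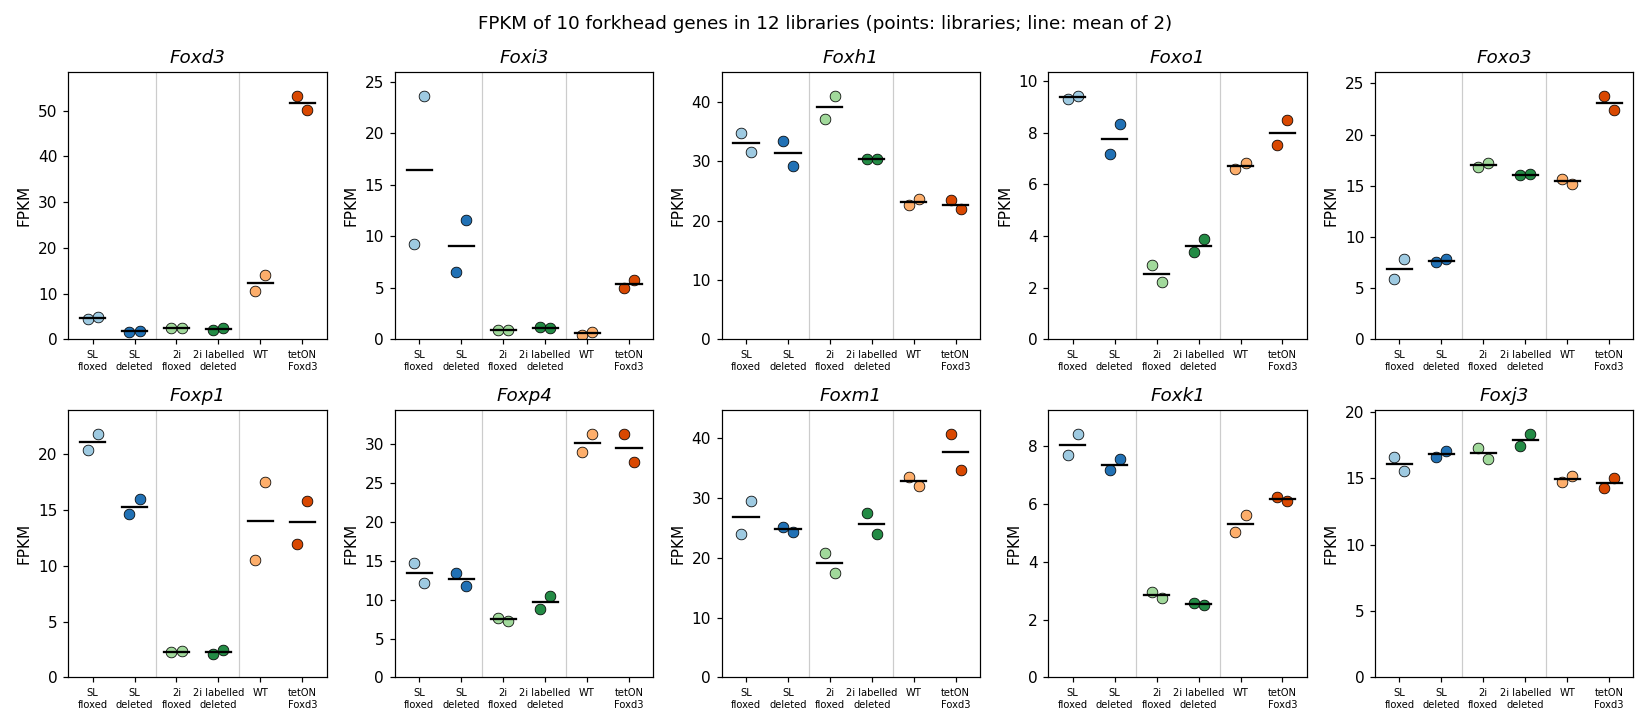
FPKM (y axis, linear, from 0, with its own scale for each gene) of the 10 forkhead genes in the 12 libraries, by group (x axis); points are libraries, bars are means of 2, and thin lines separate the 3 tables. Foxd3 stands at 50.1 and 53.2 FPKM in the tetON libraries and at no more than 14.1 elsewhere, and Foxp1 and Foxk1 are low in all 4 libraries in 2i.

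Foxd3 (ENSMUSG00000067261) is a gene with 1 exon at chr4:99656299-99658622 on the plus strand (GRCm38), overlapping the miRNA gene Gm23366 on that strand, and it is the gene targeted in the study. In SL, its level was 1.62 and 1.83 FPKM in the deleted libraries against 4.53 and 4.81 FPKM in the floxed ones. The groups did not overlap, and the deleted mean was 1.72 ± 0.154 FPKM (SD, n = 2) against 4.67 ± 0.200, a ratio of 2.71 between floxed and deleted. In 2i, Foxd3 stood at 2.07 and 2.45 FPKM in the libraries labelled deleted and at 2.51 and 2.42 FPKM in the floxed ones. These groups overlapped, so by FPKM the targeted gene did not show its deletion in 2i, and those libraries are called labelled deleted below. In the overexpression experiment, Foxd3 reached 53.2 and 50.1 FPKM in tetON Foxd3 cells against 10.6 and 14.1 FPKM in WT cells. Every tetON library was above every WT library, and the ratio of the means was 4.19. The FPKM of a gene does not tell transcript of the induced copy from transcript of the resident alleles.

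In limma fits over all genes tested, with Benjamini-Hochberg adjustment, Foxd3 differed by -1.06 in SL (log2(FPKM + 1) scale, SE 0.15, adjusted p = 0.137). That is past 0.05 before adjustment but not after it, where 1 of 12024 genes passed. Among all genes Foxd3 stood at place 25 by p in SL. In 2i the difference was -0.09 (SE 0.11, limma adjusted p = 0.461), with a 95% interval from -0.33 to 0.15. With overexpression Foxd3 rose by 1.99 (SE 0.15, limma adjusted p = 0.0145), a call lost when genes with low values were kept in the test (limma adjusted p = 0.0558). Fitted over all 12 libraries, with a shared estimate of the spread, the SL difference of Foxd3 did pass (limma adjusted p = 0.00966), where 1.23% of all genes were higher and 0.109% lower.

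The authors' deposited tables also give a mean of scaled reads per group, and for Foxd3 these means and the FPKM values did not show the same ratios. In SL, the authors' mean reads of Foxd3 were 358.6 in the deleted and 681 in the floxed group, a ratio of 1.90 between floxed and deleted where FPKM gave 2.71. In 2i the authors' mean reads were 376.2 in the group labelled deleted and 221.2 in the floxed group, 1.70 times as many. The direction thus turned with the measure: the 2i group labelled deleted was higher by reads and slightly lower by FPKM. The adjusted p computed from the p-value in the authors' deposited table was 9.43e-06 for that rise. In the overexpression experiment the authors' mean reads were 6398 against 1860, a ratio of 3.44 beside 4.19 by FPKM.

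Expressed as reads per unit of FPKM, Foxd3 carried 208 in SL deleted and 146 in SL floxed, 167 in 2i labelled deleted and 89.7 in 2i floxed, and 124 in tetON and 151 in WT. Its log2 FPKM ratio minus its log2 read ratio lay 0.54 below the median of all genes with over 200 mean reads in SL and 1.13 below it in 2i. Only 0.147% of such genes lay further from the median in SL and 0.152% in 2i, and in overexpression, where Foxd3 lay 0.26 above it, 1.33% did. The other 9 genes lay nearer the median than Foxd3 in each comparison, but not all were close to it. Their widest gap was at Foxo3 in 2i, which lay 0.32 below the median and was exceeded by 3.41% of genes. Foxp1 in overexpression lay 0.14 below it and was exceeded by 5.94%. Where along the gene the reads fell was not analysed here, and the part of read position in this gap was not tested.

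**Figure D2:**
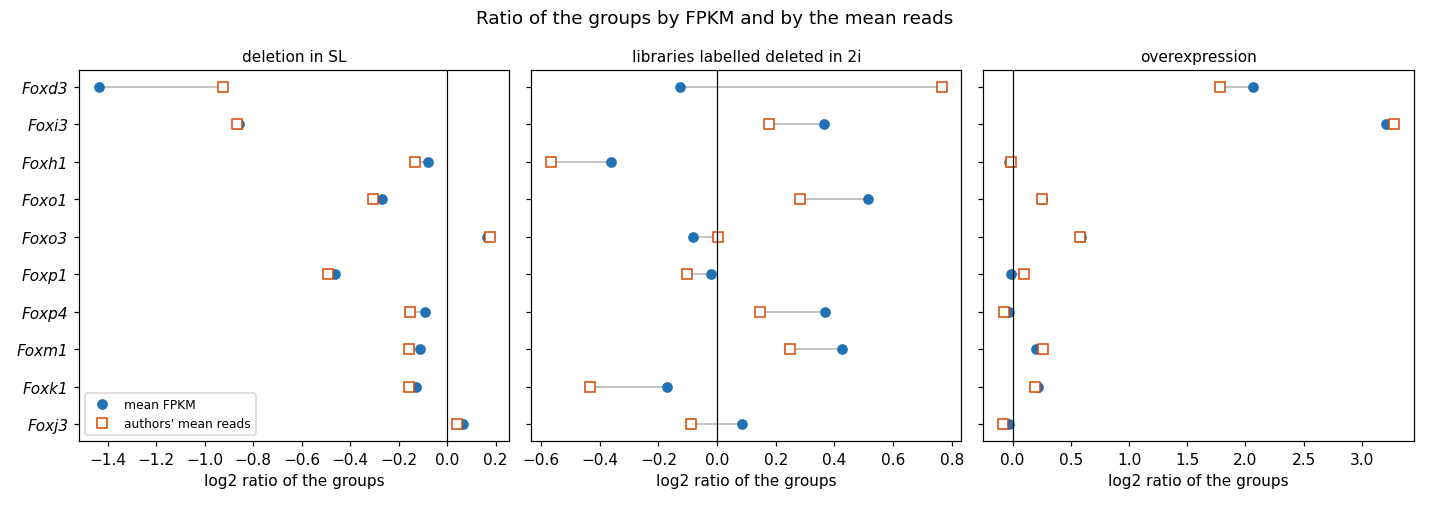
Log2 ratio of the group means (x axis) for each of the 10 genes (y axis), in 3 panels for the 3 comparisons, by FPKM (filled circles) and by the mean reads of the authors' deposited tables (open squares), with no error because the read means carry no spread. The pair of marks is widest apart for Foxd3, at -0.13 by FPKM and 0.77 by reads in 2i.

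Foxi3 (ENSMUSG00000055874, chr6:70956531-70961066, plus strand, 2 exons) is a forkhead factor known from placodes, pharyngeal arches and ectodermal appendages. In the overexpression experiment it stood at 4.97 and 5.77 FPKM in tetON Foxd3 cells and at 0.446 and 0.719 FPKM in WT cells. Both tetON libraries were far above both WT libraries, and the ratio of the means was 9.22. On the log2(FPKM + 1) scale, which understates changes of low genes, Foxi3 rose by 2.01 (SE 0.18, limma adjusted p = 0.0177). Foxi3 reached the filter of 1 FPKM in the tetON group only, so it entered the test through the group where it is high. In the authors' deposited table its fold was 9.69. The call was lost without WT replicate 1 (difference 1.89, limma adjusted p = 0.0553) and, as for Foxd3, with genes of low values kept in (limma adjusted p = 0.0558).

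In SL, Foxi3 was 6.54 and 11.6 FPKM after deletion, against 9.27 and 23.6 FPKM in the floxed libraries. The groups overlapped and varied widely, the difference was -0.70 (SE 0.43, limma adjusted p = 0.742), and replicate 2 was the higher library of each group. Single libraries moved this difference from -1.34 without floxed replicate 1 to -0.075 without floxed replicate 2. It was -0.33 without deleted replicate 1, and -1.08 without deleted replicate 2, where it passed. That fit leaves 1 library in the deleted group, and calls over all genes rose in it too. In 2i, Foxi3 was near 1 FPKM everywhere, at 1.19 and 1.07 in libraries labelled deleted and 0.880 and 0.876 in floxed ones. These did not overlap, but the difference of 0.18 did not pass (limma adjusted p = 0.131). Foxi3 thus spanned a 28.2-fold range of group means, close to the 30.0-fold range of Foxd3, with its highest group in SL floxed cells and its lowest in WT cells.

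Markers of placodes and surface ectoderm were measured beside Foxi3. All 12 had a row, and their summed FPKM ran from 165 to 194 in SL floxed, 241 to 267 in SL deleted, 35.4 to 35.5 in 2i floxed, 41.2 to 41.3 in 2i labelled deleted, 37.0 to 48.4 in WT and 42.4 to 59.6 in tetON libraries. In SL most of the sum came from the keratins Krt8 (mean 82.9 FPKM in floxed and 126 in deleted cells) and Krt18 (73.6 and 108). By limma 0 of the 5 tested markers passed in overexpression (1 at an unadjusted p under 0.05, and 1 by the authors' deposited p-values after adjustment) and 0 of 4 in SL (3 and 0 by the same measures). The fibroblast markers, 21 of 22 of which had a row, summed to 233 to 280 FPKM in SL floxed and 381 to 416 in SL deleted libraries, against 16.6 to 28.6 in the other 8. All 12 pluripotent cell markers were at 1 FPKM or more in every group. The fibroblast marker level thus moved with the SL groups, being higher in the deleted libraries, and its part in the SL levels and differences of the forkhead genes was not tested. In the overexpression experiment, grown without feeders, 6 of the 21 were at 1 FPKM or more in each group, and 3 were listed at 0 in tetON and 5 in WT cells. In bulk RNA, a change in the number of cells of a type cannot be told apart from a change in RNA per cell.

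Foxh1 (ENSMUSG00000033837, chr15:76668225-76669948, minus strand) was the forkhead gene with the highest level in 2i floxed cells, where its libraries read 37.2 and 41.0 FPKM. In the 2i libraries labelled deleted it was 30.5 and 30.5 FPKM. Both were below both floxed libraries, and Foxh1 fell by 0.35 on the log2 scale (SE 0.07, limma adjusted p = 0.00171). In SL it was 33.5 and 29.3 FPKM after deletion and 34.7 and 31.6 FPKM in the floxed controls. These overlapped (difference -0.08, limma adjusted p = 0.946). Foxh1 read 23.5 and 21.9 FPKM in tetON and 22.7 and 23.6 FPKM in WT cells, which also overlapped. Its 1.72-fold range of group means was the second narrowest of the 10 genes.

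Of the genes that act with Foxh1 in Nodal signalling, 10 of 17 tested rose and 0 fell by limma in the 2i libraries labelled deleted, with a median difference of 0.28 beside 0.19 over all genes. Of all genes tested, 47.9% rose and 19.7% fell there. After scaling the libraries to each other by the median of gene ratios, 6 rose and 0 fell, beside 30.3% and 33.8% of all genes. Nodal, the ligand, was 9.85 and 12.99 FPKM in libraries labelled deleted and 3.26 and 2.41 FPKM in floxed ones. The groups were well apart, with a rise of 1.69 (limma adjusted p = 3.77e-05). The inhibitor Smad7 rose by 0.88 and the ligand Gdf3 by 0.50 (limma adjusted p = 0.000102 and 0.000182), while Foxh1 itself fell. In SL, 0 of 19 passed by limma, 0 at an unadjusted p under 0.05 and 0 by the authors' deposited p-values after adjustment. In overexpression, where 2.64% of all genes passed, 1 of 16 did, the SMAD corepressor Skil, which rose by 0.68 (limma adjusted p = 0.0453).

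Foxo1 (ENSMUSG00000044167, chr3:52268336-52353221, plus strand) overlaps an antisense gene, Gm20402, and whether reads were counted by strand is not stated, as for the other overlapping genes named below. It was 3.37 and 3.89 FPKM in 2i libraries labelled deleted and 2.87 and 2.22 FPKM in floxed ones. The groups did not overlap, and Foxo1 rose by 0.39 (SE 0.12, limma adjusted p = 0.0203). The authors' deposited table gave a fold of 1.22 there (adjusted p = 0.0433). After median-of-ratios scaling the difference was 0.22 and did not pass (limma adjusted p = 0.138). The call was also lost without labelled deleted replicate 2, without floxed replicate 2 and with low genes kept in (limma adjusted p = 0.119, 0.0919 and 0.0684). In SL it went the other way, at 7.20 and 8.35 FPKM after deletion against 9.32 and 9.42 FPKM in the floxed controls. These were apart too, although the difference of -0.24 did not pass (limma adjusted p = 0.707). In tetON cells Foxo1 was 7.52 and 8.51 FPKM against 6.598 and 6.84 FPKM in WT, a difference of 0.22 without overlap that did not pass (limma adjusted p = 0.427).

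Foxo3 (ENSMUSG00000048756, chr10:42181841-42276755, minus strand) was 23.7 and 22.4 FPKM in tetON and 15.6 and 15.2 FPKM in WT cells. The groups were clearly apart, with a ratio of 1.498 and a difference of 0.55 (SE 0.11). The limma adjusted p was 0.0629, just short of the threshold, whereas the p-value of the authors' deposited table gave an adjusted 0.0247 for a fold of 1.49. In 2i Foxo3 read 16.0 and 16.1 FPKM in libraries labelled deleted and 16.9 and 17.2 FPKM in floxed ones. This small gap of -0.08 did not pass as deposited (limma adjusted p = 0.353), but after median-of-ratios scaling it was -0.29 and passed (limma adjusted p = 0.00623). The authors' mean reads showed no such gap, at 3169.8 in the group labelled deleted and 3164.4 in the floxed group. In SL Foxo3 read 7.56 and 7.81 FPKM after deletion and 5.86 and 7.86 FPKM in the floxed controls, which overlapped.

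Foxo1 was lowest in the 2i experiment and Foxo3 in the SL experiment. Foxo1 ran from 2.22 to 3.89 FPKM in the 4 libraries in 2i and from 6.598 to 9.42 FPKM in the other 8. Foxo3 ran from 5.86 to 7.86 FPKM in the 4 SL libraries and from 15.2 to 23.7 FPKM in the other 8. WT and tetON cells, also grown in serum and LIF, held Foxo3 near or above its 2i levels. Cell line, feeders and doxycycline also differ between those cells and the SL cells, and the part of the medium was not tested. These levels cross tables that may have been normalized separately, and are a description without a test.

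Among 18 Foxo regulators tested in 2i, 9 rose and 1 fell (6 and 3 after median-of-ratios scaling), with a median of 0.26. The share that rose was close to that over all genes, of which 47.9% rose and 19.7% fell (30.3% and 33.8% after scaling). The kinase Sgk1, which phosphorylates Foxo proteins, was 75.5 and 81.2 FPKM in libraries labelled deleted and 29.1 and 20.6 FPKM in floxed ones. It rose by 1.64 (limma adjusted p = 2.5e-05), and the kinase Akt1 rose by 0.78 (limma adjusted p = 0.000137). Akt1 was also the 1 of 18 regulators that passed in overexpression, at 40.2 and 42.2 FPKM in tetON against 20.8 and 24.0 FPKM in WT cells. Its tetON libraries were above both WT libraries by 0.85 (limma adjusted p = 0.033). Of 23 Foxo target genes in 2i, 12 rose and 8 fell (6 and 8 after scaling), with a median of 0.21, again near the 47.9% that rose and the median of 0.19 over all genes. Pik3ip1, an inhibitor of PI3 kinase, fell by 1.06, and the transcriptional repressor Bcl6, which reached 1 FPKM only in the group labelled deleted, rose by 1.08 (limma adjusted p = 2.23e-05 and 6.63e-05). By limma 0 of 23 Foxo targets passed in overexpression (8 unadjusted, 0 by the authors' deposited p-values after adjustment) and 0 of 24 in SL (4 and 1), while 0 of 18 regulators passed in SL (3 and 1).

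Foxp1 (ENSMUSG00000030067, chr6:98925338-99522721, minus strand) overlaps Gm20696 on the same strand. It was 14.6 and 15.9 FPKM in SL deleted and 20.3 and 21.7 FPKM in SL floxed libraries. Both deleted libraries were lower, with a difference of -0.44 (SE 0.12) that was past 0.05 before adjustment and not after it (limma adjusted p = 0.311). In 2i Foxp1 was low in every library, at 2.06 and 2.50 FPKM in those labelled deleted and 2.25 and 2.38 FPKM in floxed ones. It read 11.9 and 15.8 FPKM in tetON and 10.5 and 17.5 FPKM in WT cells, where the groups overlapped. The 9.22-fold range of its group means was the third widest of the 10, after Foxd3 and Foxi3.

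Foxp4 (ENSMUSG00000023991, chr17:47867133-47924645, minus strand) overlaps the antisense gene Gm15556. It was 8.84 and 10.5 FPKM in 2i libraries labelled deleted and 7.69 and 7.28 FPKM in floxed ones. The groups were apart, and Foxp4 rose by 0.32 (SE 0.10, limma adjusted p = 0.01997), a call lost after median-of-ratios scaling (0.12, limma adjusted p = 0.283). It was also lost without labelled deleted replicate 2 (limma adjusted p = 0.203), without floxed replicate 2 (0.0503), with low genes kept in (0.0536), with all 12 libraries in 1 fit (0.0606) and by the authors' deposited p-values (0.327). In SL it was 13.5 and 11.7 FPKM after deletion and 14.7 and 12.1 FPKM in the floxed controls, and in overexpression 31.2 and 27.7 FPKM in tetON and 28.9 and 31.2 FPKM in WT cells. Both pairs of groups overlapped.

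Foxm1 (ENSMUSG00000001517, chr6:128362967-128376146, plus strand), which overlaps Tex52 on the same strand, was 27.5 and 23.9 FPKM in 2i libraries labelled deleted and 20.9 and 17.4 FPKM in floxed ones. It rose by 0.41 (SE 0.10, limma adjusted p = 0.00618) without overlap, and did not pass after scaling (0.19, limma adjusted p = 0.130). The authors' deposited table gave a fold of 1.19 there (adjusted p = 0.00363). In SL it was 25.2 and 24.3 FPKM after deletion and 24.0 and 29.5 FPKM in the floxed controls, which overlapped. In tetON cells it was 40.6 and 34.6 FPKM against 33.5 and 32.0 FPKM in WT, a difference of 0.19 that did not pass (limma adjusted p = 0.411). Of its target genes in 2i, 11 of 24 rose and 6 fell, and after scaling 6 rose and 12 fell. These counts were near those over all genes (47.9% and 19.7%) as deposited, while the scaled shares over all genes were 30.3% and 33.8%. The spindle gene Aspm rose by 1.05 and the topoisomerase Top2a fell by 0.56 (limma adjusted p = 0.000115 and 4.64e-05). By limma 0 of the 24 passed in SL (2 unadjusted, 0 by the authors' deposited p-values after adjustment) and 0 in overexpression (1 and 1).

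Foxk1 (ENSMUSG00000056493, chr5:142401497-142462011, plus strand) was 7.17 and 7.55 FPKM in SL deleted and 7.69 and 8.41 FPKM in SL floxed libraries. In 2i it was 2.57 and 2.52 FPKM in libraries labelled deleted and 2.97 and 2.76 FPKM in floxed ones, and in overexpression 6.24 and 6.10 FPKM in tetON and 5.02 and 5.60 FPKM in WT cells. The groups did not overlap in any of the 3 comparisons, lower in both sets of libraries labelled deleted and higher in tetON cells, yet none of the differences passed as deposited (-0.11, -0.13 and 0.19; limma adjusted p = 0.919, 0.285 and 0.514). After median-of-ratios scaling the 2i difference was -0.29 and passed (limma adjusted p = 0.0278), and the authors' deposited table gave a fold of -1.35 there (adjusted p = 0.000256).

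Foxj3 (ENSMUSG00000032998, chr4:119537004-119629119, plus strand), a factor known from muscle, overlaps Frg2f1 on the opposite strand. It had the narrowest range of group means, 1.22-fold, between 14.6 FPKM in tetON and 17.9 FPKM in 2i labelled deleted cells. Its 12 libraries lay between 14.2 and 18.3 FPKM. None of its differences passed, and the sign in 2i turned with median-of-ratios scaling, from 0.08 to -0.13.

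Partners of the Foxk and Foxp proteins, a list of SIN3, polycomb deubiquitinase, dishevelled and CtBP genes, gave 10 of 15 higher and 1 lower in 2i (4 and 3 after scaling), where 47.9% of all genes were higher and 19.7% lower (30.3% and 33.8% after scaling). By limma they gave 0 of 15 in SL (3 unadjusted, 0 by the authors' deposited p-values after adjustment) and 0 of 15 in overexpression (2 and 0). Ogt, the O-GlcNAc transferase, rose by 0.69 and Dvl3, a dishevelled protein of the Wnt pathway, by 1.00 in 2i (limma adjusted p = 8.08e-05 and 9.17e-05). The corepressors known or proposed for Foxd3 gave 6 of 16 higher and 6 lower in 2i (4 and 9 after scaling), against the same shares over all genes, with a median of -0.12 beside 0.19, and 0 of 16 in SL by limma (1 unadjusted, 0 by the authors' deposited p-values after adjustment). Tle4 rose by 0.96 and its paralog Tle3 fell by 0.69 (limma adjusted p = 0.000147 and 2.08e-05). Tle4 read 12.04 and 13.8 FPKM in libraries labelled deleted against 6.80 and 5.53 FPKM in floxed ones, and Tle3 79.4 and 77.2 FPKM against 131 and 124 FPKM. These members of the Groucho family were thus displaced in opposite directions, with no overlap of groups. In overexpression 1 of 15 corepressors passed, beside 2.64% of all genes, the NuRD subunit Mta1, which rose by 0.79 (limma adjusted p = 0.0438).

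Counted together, 0 of the 10 forkhead genes passed by limma in SL, where 0.00832% of all genes tested did. At an unadjusted p under 0.05, 2 of the 10 did (Foxd3 and Foxp1), beside 1097 of 12024 genes, and the authors' deposited p-values, adjusted, gave 0 as well (0.44% of all genes higher and 0.095% lower). In 2i 3 rose and 1 fell, where 67.6% of all genes passed, 47.9% higher and 19.7% lower, so 4 of 10 was a smaller share than over all genes. Median-of-ratios scaling changed the background to 30.3% higher and 33.8% lower and moved the median over all genes from 0.19 to -0.02. Foxh1 remained lower (-0.57, limma adjusted p = 0.000327) and was joined by Foxo3 and Foxk1, and 0 rose. By the authors' deposited table, Foxo3 had mean reads of 3169.8 and 3164.4 in the labelled deleted and floxed groups, and did not pass. In overexpression Foxd3 and Foxi3 rose and 0 fell, where 2.64% of all genes passed, 0.994% higher and 1.65% lower. The rise of Foxd3, the induced gene, was set by the design, and Foxi3 entered the test through the tetON group only. By the authors' deposited p-values, adjusted, 3 rose and 2 fell in 2i (20.6% and 20.2% of all genes), with Foxd3 among the rises, and 3 rose and 0 fell in overexpression (1.96% and 2.59%), Foxo3 being the third. The median over the 10 was -0.11, 0.03 and 0.19 in the 3 comparisons, beside -0.01, 0.19 and 0.03 over all genes.

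By the plainer measure of groups that do not overlap, 4 of the 10 were lower and 0 higher in SL, where 17.3% of all genes were lower and 19.7% higher. The 4 were Foxd3, which was the gene targeted there, and Foxo1, Foxp1 and Foxk1. In 2i 5 were higher and 3 lower, beside 58.7% and 26.6% of all genes. In overexpression 6 were higher and 0 lower, beside 29.5% and 22.8% of all genes, and the 6 were Foxd3, Foxi3, Foxo1, Foxo3, Foxm1 and Foxk1. Of these, Foxd3 was the induced gene, and Foxi3 reached 1 FPKM in the tetON group only.

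The difference between the media was tested itself, as the SL difference minus the 2i difference over the 8 libraries of the deletion experiments. Foxd3 differed by -0.97 (SE 0.17, limma adjusted p = 0.00750) and Foxo1 by -0.63 (SE 0.19, limma adjusted p = 0.0432). These 2 of 10 were lower and 0 higher, where 23.9% of all genes passed, 18.4% lower and 5.55% higher. With median-of-ratios scaling Foxo1 lost its call (-0.48, limma adjusted p = 0.0934), Foxd3 kept it (-0.79, limma adjusted p = 0.0126) and Foxh1 passed (0.48, limma adjusted p = 0.0499). Foxo1 also lost it with low genes kept in (limma adjusted p = 0.0795) and on leaving out any 1 of the 8 libraries but 2i floxed replicate 1, with values between -0.73 and -0.50. Foxm1, at -0.51, did not pass (limma adjusted p = 0.0711). Medium and feeders differ together between the SL and 2i experiments and cannot be told apart.

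**Figure D3:**
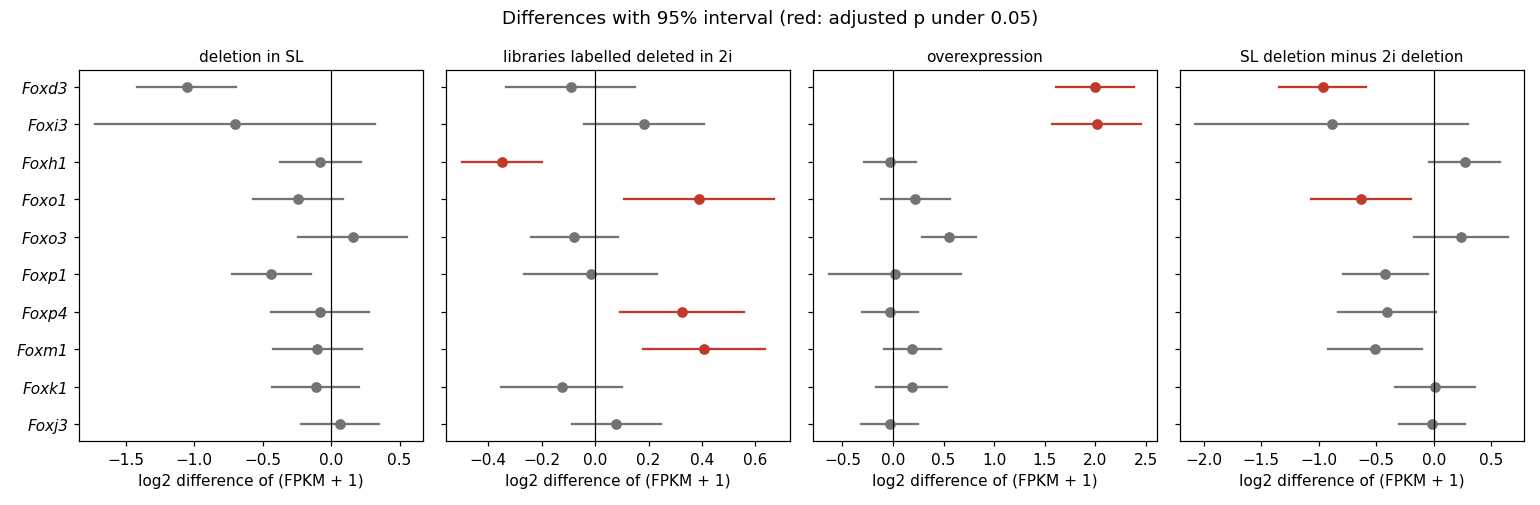
Difference on the log2(FPKM + 1) scale (x axis) with its 95% interval from limma for each of the 10 genes (y axis), in 4 panels for the 3 comparisons and for the SL difference minus the 2i difference; red marks an adjusted p under 0.05, and scales differ between panels. Foxd3 and Foxi3 stand alone at 1.99 and 2.01 in overexpression, no gene is red in SL, and in 2i all differences lie within 0.41 of 0.

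The order of the 6 groups differed from gene to gene. For Foxd3 it ran from tetON through WT, SL floxed, 2i floxed and 2i labelled deleted to SL deleted, and only the neighbouring 2i groups overlapped. For Foxi3 it ran from SL floxed and SL deleted, which overlapped, through tetON, 2i labelled deleted and 2i floxed to WT. For Foxk1 the order was SL floxed, SL deleted, tetON, WT, 2i floxed and 2i labelled deleted, with no overlap between neighbours. WT cells, in serum without feeders, held Foxd3 at a mean of 12.3 FPKM, above the 4.67 FPKM of SL floxed cells. Cell line, feeders and doxycycline differ between these groups, and cannot be told apart.

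The other forkhead genes give the setting. Of 44 in the list, 40 had a row and the remaining 4 are not analysed here. At a mean of 1 FPKM or more, 20 were found in at least 1 group and 15 in every group, and 20 stayed under 1 FPKM in all groups. Foxa2, an endoderm factor, reached no more than 0.742 FPKM in any library.

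The 6 forkhead genes outside the 10 that reached 5 FPKM in a group were Foxo4, Foxk2, Foxn2, Foxn3, Foxn4 and Foxj1. Foxo4 was 12.8 and 14.5 FPKM in 2i libraries labelled deleted and 8.04 and 8.01 FPKM in floxed ones, a rise of 0.70 (limma adjusted p = 0.000227). Foxn4 was 1.51 and 1.69 FPKM against 8.09 and 7.05 FPKM, a fall of 1.72 (limma adjusted p = 9.31e-06), larger than any difference of the 10 in 2i. Foxk2, Foxj2 and Foxr1 also rose in 2i, by 0.32, 0.49 and 0.71 (limma adjusted p = 0.00404, 0.00257 and 0.000987). Foxr1 reached 1 FPKM only in the group labelled deleted (means of 1.22 and 0.367 FPKM), so it entered the test through the group where it is high. After median-of-ratios scaling Foxk2 did not pass (0.11, limma adjusted p = 0.188), nor did it by the authors' deposited table (fold of 1.04, adjusted p = 0.540), whereas Foxo4, Foxj2 and Foxr1 passed after scaling and Foxn4 was still lower. Over the 18 forkhead genes tested in 2i, 7 rose and 2 fell as deposited, and 3 rose and 4 fell after scaling. Of all genes tested, 47.9% rose and 19.7% fell as deposited, and 30.3% and 33.8% did after scaling. Foxn4 differed between the media by 1.34, and Foxo4 by -1.09 and Foxk2 by -0.44 (limma adjusted p = 0.00719, 0.0209 and 0.033), and Foxk2 lost that call after scaling (limma adjusted p = 0.175). In overexpression Foxn3 was 12.8 and 13.7 FPKM in tetON and 7.58 and 5.63 FPKM in WT cells, and its difference of 0.92 did not pass (limma adjusted p = 0.0576), although the p-value of the authors' deposited table gave an adjusted 0.0326 for a fold of 1.83. Foxn2 and Foxj1 passed in no comparison. Genes under 1 FPKM in both groups were not tested by limma, but some passed by the authors' deposited p-values after adjustment. In overexpression Foxr1 fell (fold of -6.57, adjusted p = 0.00216), as did Foxn1 (fold of -8.14, adjusted p = 0.0198). In 2i Foxr2 fell (fold of -3.98), whereas Foxc1 and Foxp3 rose (folds of 2.49 and 2.87).

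**Figure D4:**
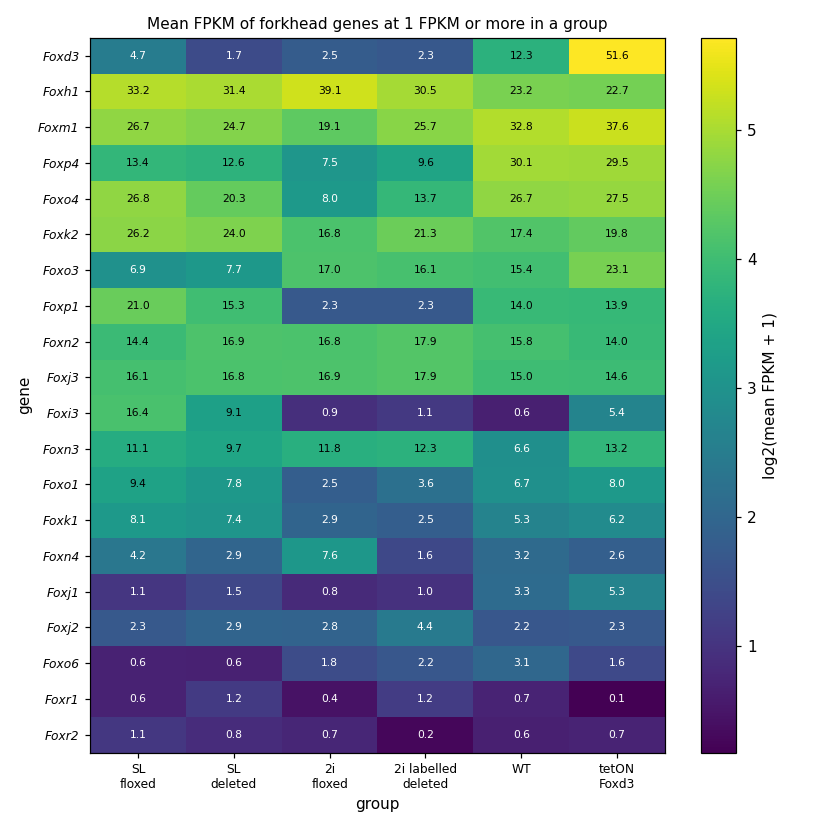
Mean FPKM of the 20 forkhead genes at 1 FPKM or more in at least 1 group (y axis, ordered by their highest group) in the 6 groups (x axis); each cell prints the mean of 2 libraries, and colour gives log2(mean FPKM + 1). Foxh1 and Foxm1 are above 19 FPKM in every group, whereas the group means of Foxd3, Foxi3 and Foxp1 span 30.0-fold, 28.2-fold and 9.22-fold ranges.

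The genes whose levels ran most like Foxd3 were found by the Pearson correlation over the 12 libraries, after the mean of each table had been subtracted from log2(FPKM + 1). The libraries fall into deletion and overexpression groups that fix most of Foxd3's spread, so r describes these libraries and has no p. Among 11440 genes the 5 highest were Bcl11a, a zinc finger repressor (r = 0.98), Mgst3 (0.98), the tubulin Tuba1a (0.98), the transporter Slc29a4 (0.97) and the kinase Vrk1 (0.96). Bcl11a had means of 1.35 and 2.75 FPKM in SL deleted and floxed, 0.0698 and 0.163 in 2i labelled deleted and floxed, and 1.57 and 0.325 in tetON and WT cells. The 5 lowest were Arl4d (-0.98), Mvp (-0.96), Dppa3, a germ cell and naive pluripotency gene (-0.96), the calcium pump Atp2b4 (-0.96) and AF067061 (-0.96). Dppa3 had means of 103 and 56.5 FPKM in SL deleted and floxed, 255 and 231 in 2i labelled deleted and floxed, and 2.02 and 10.7 in tetON and WT cells.

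Of the 9 other forkhead genes, Foxi3 ran most like Foxd3 (r = 0.89, place 58 of 11440), followed by Foxk1 (0.81, place 249), Foxo3 (0.65) and Foxo1 (0.52). Foxp1 (0.38) and Foxm1 (0.34) were weaker, Foxh1 (0.06) and Foxp4 (0.03) were near 0, and Foxj3 was negative (-0.37).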

How the data were processed

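The 12 libraries of polyadenylated RNA were prepared with a TruSeq kit, per the labels' protocols. Tools listed in the submitters' processing notes are TopHat2, Cufflinks, DESeq2, SAMtools and FastQC, without versions, and the builds listed are mm10 and GRCm38. The authors deposited, per the file headers, 1 table per comparison with FPKM per library, a mean read signal per group, a signed fold change (a score) and an unadjusted p-value. The authors' mean reads are group means without spread, so the depth of each library is unknown and no counting interval is given. The number of libraries limits the precision. The medium of a deletion table was taken from its name, and columns were matched to libraries by their names.

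Each comparison was fitted on its own 4 libraries (2 residual degrees of freedom) with limma 3.58.1 in R 4.3.3, with a variance trend, on log2(FPKM + 1), over genes whose mean reached 1 FPKM in 1 group or more. All 10 members passed this filter in all comparisons, Foxi3 through 1 group only in 2i and in overexpression. P-values are two-sided and adjusted by Benjamini and Hochberg over all genes tested, with a threshold of 0.05. The difference between media used the 8 deletion libraries. Tables may have been normalized separately, so levels across tables are described without a test. The fit was tested on simulated data.

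Besides the 10 members, genes were named by rule: forkhead genes past the threshold or at 5 FPKM in a group, up to 4 genes per list and comparison by adjusted p, and the 5 highest and 5 lowest correlations with Foxd3. Some genes of the rule are not named. The marker genes Krt8, Krt18, Amn and Dab2, and Foxa2, Foxn1, Foxr2, Foxc1 and Foxp3, were chosen after their values were seen. The members and the gene lists were chosen with earlier results of these data known. Alternatives were a pseudocount of 0.1, no filter, median-of-ratios scaling, a replicate block, all 12 libraries in 1 fit, no variance trend, leaving out each library, and adjusting the p-values that the authors deposited. The recognition helix stretch of some members is not reported here.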

Additional observations from a re-analysis of the deposited data

Results flagged for a closer look

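Foxd3 and Foxo1 are given here because their differences between deleted and floxed libraries were not the same in SL and in 2i, by a test of the difference itself. The SL difference minus the 2i difference was -0.97 for Foxd3 (limma adjusted p = 0.00750) and -0.63 for Foxo1 (limma adjusted p = 0.0432), on the log2(FPKM + 1) scale. Of all genes, 23.9% passed this test. For Foxd3, -1.06 in SL stood beside -0.09 in 2i, and for Foxo1, -0.24 stood beside 0.39. After median-of-ratios scaling Foxd3 kept its call (-0.79, limma adjusted p = 0.0126) and Foxo1 lost it (-0.48, limma adjusted p = 0.0934). By the authors' mean reads Foxd3 was higher in the 2i group labelled deleted, with a log2 ratio of 0.77. Leaving out 1 library at a time kept Foxd3 past the threshold each time, with an adjusted p from limma of 0.00931 to 0.0498.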

How the results depend on the processing

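The replicate numbers pair the libraries only by name: same-numbered deviations correlated at 0.60 in SL, 0.60 in overexpression and -0.05 in 2i, with 2 pairs each. With the replicate number as a block, 3 of 10 forkhead genes passed in SL, with Foxd3 at -1.06 (limma adjusted p = 1.15e-16) and Foxi3 at -0.70 (limma adjusted p = 4.34e-10). Genes called over all 12024 in SL went from 1 higher and 0 lower to 1171 and 826. The block leaves fewer residual degrees of freedom than the main fit, so these small p-values rest largely on the spread shared over genes. The SL libraries of Foxi3 overlapped between groups. In the difference between media 6 passed with the block, where 1414 of 12497 genes were higher and 3928 lower. With all 12 libraries in 1 fit, 1 passed in SL (Foxd3 at -1.06, limma adjusted p = 0.00966). Without the filter on low values, 2 passed in 2i, where 5961 of 16608 genes were higher and 2410 lower. In overexpression 0 passed by limma (0 genes of all, with Foxd3 at 1.99, adjusted p = 0.0558). In the difference between media 1 passed, where 607 of 17348 genes were higher and 1754 lower. By the authors' deposited reads Foxd3 was at 0.77 in 2i (adjusted p = 9.43e-06).

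Leaving out 1 library at a time, the count that passed ran from 0 to 2 in SL, 2 to 4 in 2i, 1 to 2 in overexpression and 1 to 3 between media, and Foxd3 in SL ran from -1.12 to -1.0002. It passed without SL deleted replicate 1 (-1.0002) or replicate 2 (-1.12), fits that leave 1 library in the deleted group. The number of calls over all genes also varied with the library left out in each comparison. In SL it rose in those same fits. The forkhead counts with a library left out therefore do not show a change particular to these genes. The 2i count fell to 2 without labelled deleted replicate 2 or floxed replicate 2, and the overexpression count to 1 without WT replicate 1. Between media the count was 1 without either SL deleted library, SL floxed replicate 2, either 2i library labelled deleted, or 2i floxed replicate 2.

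Signs turned for differences near 0. With median-of-ratios scaling, Foxj3 was at -0.13 in 2i and 0.19 between media, and Foxp1 at -0.012 in overexpression; by the authors' deposited fold Foxj3 was at -0.084 in 2i. With 1 library left out, ranges crossed 0 in SL for Foxh1 (-0.17 to 0.014), Foxo3 (-0.028 to 0.34), Foxp4 (-0.21 to 0.046) and Foxm1 (-0.24 to 0.041), and in 2i for Foxp1 (-0.11 to 0.079). They also did in overexpression for Foxh1 (-0.075 to 0.019), Foxp1 (-0.33 to 0.36), Foxp4 (-0.11 to 0.053) and Foxj3 (-0.068 to 0.0022), and between media for Foxk1 (-0.046 to 0.068) and Foxj3 (-0.059 to 0.028). The cause was not tested. Depth per library is unknown, so no limit from counting can be given.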

Other observations

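Markers of other lineages were measured in the same libraries. In overexpression, where 0.994% of all genes tested rose and 1.65% fell, 2 of 5 tested neural ectoderm markers rose by limma, the intermediate filament gene Nes by 1.78 and the early neural factor Sox1 by 1.01 (adjusted p = 0.0298 and 0.0421). Their median difference was 1.01, beside 0.03 over all genes. Of 12 pluripotent cell markers, 2 fell, Dppa5a by 1.37 and Nanog by 0.48 (limma adjusted p = 0.0177 and 0.0497), and 0 rose. Of 2 neural crest markers tested, Ngfr fell by 1.22 (limma adjusted p = 0.0423). By limma 0 of 6 primitive endoderm markers passed (2 unadjusted, 0 by the authors' deposited p-values after adjustment), as did 0 of 7 fibroblast markers (1 and 0) and 0 of 1 mesendoderm marker (0 and 0).

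In the 2i libraries labelled deleted, 7 of 12 pluripotent cell markers rose and 1 fell (5 and 2 after median-of-ratios scaling), where 47.9% of all genes rose and 19.7% fell (30.3% and 33.8% after scaling). Zfp42 rose by 1.14 and Lin28a, an RNA-binding protein, fell by 1.34 (limma adjusted p = 9.31e-06 and 4.23e-06). All 5 primitive endoderm markers tested, of 12 in the list, rose there (3 after scaling). Among them were Gata4 by 0.77 and Gata6 by 0.63 (limma adjusted p = 0.000404 and 0.000745), both of which reached 1 FPKM only in the group labelled deleted. The markers under the filter moved both ways by the authors' deposited folds, with Amn at -5.52 (mean reads of 7.9 against 51.89) and Dab2 at 1.8. Of 5 neural ectoderm markers 3 rose (3 after scaling), of 2 neural crest markers 2 (2), of 5 placode markers 2 (1, with 2 lower), of 7 fibroblast markers 4 with 2 lower (4 and 3), and of 3 mesendoderm markers 1 (1). At 1 FPKM or more in the labelled deleted and floxed groups were 5 and 3 neural ectoderm, 3 and 1 mesendoderm and 5 and 7 fibroblast markers. Some thus entered the test only through the group where they were high. For placode markers the counts were 5 and 5, and for neural crest markers 2 and 2. In SL, 0 of the tested markers of these lists passed by limma. At an unadjusted p under 0.05, 12 of 17 fibroblast, 3 of 4 placode, 2 of 4 primitive endoderm and 2 of 7 neural ectoderm markers did. The counts were 1 of 12 for pluripotent cell, 0 of 6 for neural crest and 0 of 4 for mesendoderm markers. Over all genes it was 1097 of 12024. By the authors' deposited p-values after adjustment 6 fibroblast markers passed, where 0.44% of all genes were higher and 0.095% lower.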
